A study of Mus musculus with 15 samples.

Results

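The EGFP-negative library of day 6 was set against the wild-type library of day 6, 1 library each, over all 24421 genes of their common count table. These are 2 of the 15 libraries of the study, which measured gene expression in microglia isolated from the forebrain of mice. The EGFP-negative cells came from Igf1-Egfp mice, which carry a green fluorescent reporter for Igf1, and were the cells sorted as lacking EGFP. The wild-type cells came from C57BL/6J mice and carried no reporter. All mice were males of 8 to 24 weeks, and in these groups the middle cerebral artery had been occluded for 60 minutes, a model of ischemic stroke, before blood flow returned, 6 days before the cells were taken. Cells were gated for intermediate CD45 and CD11b and were also stained for CD31. The EGFP-positive library of the same reporter mice and day, and 3 day 6 libraries of Yy1flox/flox mice without Cre, called floxed controls here, are given beside both libraries.

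The labels do not say how many mice gave each library, how the reporter transgene was built, or whether the wild-type mice were littermates. Genotype and EGFP state changed together, so the effect of the transgene and the effect of the sort cannot be told apart. The protocol names a FITC conjugate for CD45, a dye detected close to EGFP, and gives no other dye for the reporter mice. With 1 library in each group there is no replicate error and no p-value. Differences are log2 ratios of CPM, a gene's counts relative to the TMM-scaled library total, with 1 CPM added, EGFP-negative over wild-type. The size rule asked for a log2 ratio of 1 or more in either direction and for a level of 20 CPM or more in the EGFP-negative or the wild-type library. Folds carry 95% Clopper-Pearson intervals that cover counting error only. The spread among the 3 floxed controls serves as a yardstick, although these mice had another genotype and their table was scaled separately.

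Microglia, macrophages that live in the brain from before birth, depend on signals through the receptor Csf1r. After ischemia, neutrophils and Ccr2-bearing monocytes enter the injured tissue from blood, and monocytes can mature there into macrophages and antigen-presenting cells. Gates on CD45 are used to part microglia, which carry intermediate amounts, from recruited leukocytes, which carry high amounts. Igf1 encodes insulin-like growth factor 1, a trophic factor that microglia make after injury.

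The promoters of some of the genes with the highest ratios are shown first, because neutrophil granule genes and MHC class II chains were among the genes with the largest ratios. Promoters are from RefSeq on build GRCm38.p6, from 250 bases before to 50 bases after the start of transcription, 5′ to 3′. Capitals in the first group mark TTGCNNAA, or its reverse complement TTNNGCAA, the letters of a C/EBP binding site. C/EBP proteins include transcription factors of the granulocyte lineage and are not confined to it.
S100a9, chr3:90695672-90695971, minus strand: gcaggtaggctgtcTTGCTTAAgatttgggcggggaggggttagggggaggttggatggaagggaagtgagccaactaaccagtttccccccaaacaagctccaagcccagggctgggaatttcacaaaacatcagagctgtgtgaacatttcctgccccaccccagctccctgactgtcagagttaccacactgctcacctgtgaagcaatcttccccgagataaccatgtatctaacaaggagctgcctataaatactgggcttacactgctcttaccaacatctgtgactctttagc
Retnlg, chr16:48872358-48872657, plus strand: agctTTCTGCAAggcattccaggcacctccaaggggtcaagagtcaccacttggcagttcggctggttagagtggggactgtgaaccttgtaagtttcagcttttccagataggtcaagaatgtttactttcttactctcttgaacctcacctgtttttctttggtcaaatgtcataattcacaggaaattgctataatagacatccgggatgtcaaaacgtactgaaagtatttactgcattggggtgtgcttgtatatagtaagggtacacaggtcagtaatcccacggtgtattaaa
Mmp8, chr9:7558179-7558478, plus strand: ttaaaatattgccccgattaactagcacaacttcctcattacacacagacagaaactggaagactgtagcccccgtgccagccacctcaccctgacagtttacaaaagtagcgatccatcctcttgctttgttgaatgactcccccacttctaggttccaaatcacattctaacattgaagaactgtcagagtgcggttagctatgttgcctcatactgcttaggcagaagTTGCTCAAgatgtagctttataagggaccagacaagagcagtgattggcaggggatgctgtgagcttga
Capitals in the second group mark CTGATTGG, searched on both strands, the letters of the Y box, which lies in the promoters of MHC class II genes and is bound by NF-Y.
H2-Aa, chr17:34287774-34288073, minus strand: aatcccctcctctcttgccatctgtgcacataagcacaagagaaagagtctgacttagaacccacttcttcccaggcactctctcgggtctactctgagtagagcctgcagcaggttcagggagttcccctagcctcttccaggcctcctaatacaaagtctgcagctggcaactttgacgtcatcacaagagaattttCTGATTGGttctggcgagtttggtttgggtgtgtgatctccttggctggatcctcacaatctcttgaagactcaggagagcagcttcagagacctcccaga
H2-Eb1, chr17:34305617-34305916, plus strand: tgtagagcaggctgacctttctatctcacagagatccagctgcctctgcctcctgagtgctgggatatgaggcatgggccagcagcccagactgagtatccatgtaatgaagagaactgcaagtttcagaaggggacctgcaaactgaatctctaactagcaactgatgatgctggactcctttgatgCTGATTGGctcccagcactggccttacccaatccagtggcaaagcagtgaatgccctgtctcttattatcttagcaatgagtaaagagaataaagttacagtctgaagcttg

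Of the 15 neutrophil markers past the size rule, 13 had a promoter in the table, and 6 of these 13 promoters held the C/EBP letters on either strand (Lcn2, Ltf, Mmp8, Ngp, Retnlg and S100a9). The same letters were in 10.8% of all 32851 promoters. The first base of the match lay at position -236 in S100a9, -246 in Retnlg and -19 in Mmp8, counted from the start site. The promoters of S100a8 and Cxcr2 held no match. The letters GAGGAAGT of a PU.1 site, searched on both strands like all others, were in 3 of the 13 neutrophil promoters (Mmp8, Mpo and S100a8) and in 3.20% of all promoters. The letters of AP-1 (TGANTCA) and CRE (TGACGTCA) sites and of the NF-kappaB site were in none of the 13. The Y box letters, a search added after the values were seen, were in 2 of 8 promoters, those of the 7 matched among the 10 MHC class II presentation genes past the size rule, at -51 in H2-Aa and -62 in H2-Eb1, and in 4.10% of all promoters. The other class II matches were AP-1 letters in H2-DMa and H2-DMb1 (2 of 8 promoters, 7.81% of all promoters), CRE letters in H2-Aa (1 of 8, 1.79% of all) and C/EBP letters in Ifi30, and no PU.1 letters were found. Of the 16 monocyte markers past the rule, 12 were matched to 15 promoters, with C/EBP letters in 2 and PU.1 letters in 4 of the 15. Of 6 lipid uptake, storage and efflux genes past the rule, 3 had a promoter, with C/EBP letters in 2 (Ch25h and Pltp). C/EBP letters were in 0 of 5 promoters of immediate early genes and 0 of 13 of endothelial and mural markers past the rule. The Y box letters were not confined to class II genes. They were also in 2 of the 13 endothelial and mural promoters (Rgs5 and Slco1a4), whose genes were lower. Plac8 (1 of 15 monocyte promoters) and Cd36 (1 of 3 lipid promoters) held them too, and the neutrophil and immediate early promoters did not. A further search beyond the planned letters was for the CArG box, CCWWWWWWGG, where W is A or T. Its letters were in 0 of the 13 endothelial and mural promoters, in no promoter of the other lists searched, and in 1.63% of all promoters. In none of the neutrophil and class II promoters did matches of different motifs overlap. A match is a description of letters and not a bound site.

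The count totals were 44132055 in the EGFP-negative library, 29578553 in the EGFP-positive library and 42540352 in the wild-type library. Among counts from 1 to 20, even numbers made up 85.4% in the EGFP-negative library, 90.9% in the EGFP-positive library and 75.8% in the wild-type library, so intervals were computed on halved counts, as if both mates of a fragment had been counted. The ribosomal RNA gene Rn45s took 15.3% of the counts in the EGFP-negative library, 16.6% in the EGFP-positive library, 9.38% in the wild-type library and 7.44% to 9.54% in the floxed controls.

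Igf1 itself checks the labels. It had 49.5 CPM in the EGFP-negative library, 813 CPM in the EGFP-positive library and 231 CPM in the wild-type library, and 122, 167 and 168 CPM in the floxed controls. The EGFP-negative library was the lowest of the 6 and the EGFP-positive library the highest, as the sort defines them. The log2 ratio of Igf1 (chromosome 10, 87858265 to 87937042, plus strand, GRCm38) was -2.20, which the sort fixed. Igf1 transcript was lower but present in cells sorted as reporter-negative. The gene of EGFP is not among the genes of the table.

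Of 7321 genes that reached 20 CPM in either library, 637 (8.7%) were higher in the EGFP-negative library by the size rule and 528 (7.21%) were lower. The higher genes made up 54.7% of the 1165 genes past the rule. This split depended on the scaling, with 494 higher and 724 lower (40.6% higher) when total counts alone were used, and 535 higher and 698 lower (43.4% higher) when Rn45s was left out. The total-count scaling moved the median of all genes by -0.20, and leaving out Rn45s moved it by -0.15. The large ratios lay mainly on one side. At an absolute log2 ratio of at least 3 there were 178 higher and 40 lower genes, at 4 there were 96 higher and 4 lower, and at 5 there were 51 higher and 0 lower. The median over the 10999 genes with at least 5 CPM was 0.03, with quartiles at -0.40 and 0.41.

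**Figure D1:**
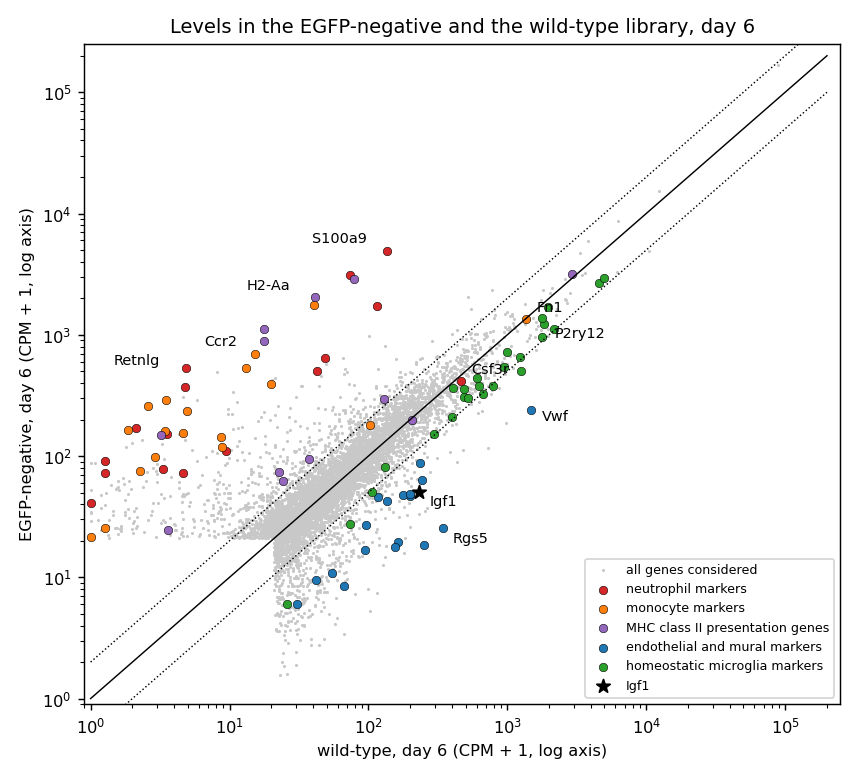
Each point is 1 of 7321 genes, with its level in the wild-type library on the horizontal axis and in the EGFP-negative library on the vertical axis, both as CPM + 1 on log axes; coloured points are list members, the solid line marks equal levels and the dotted lines a log2 ratio of 1 either way. Most neutrophil and monocyte genes and some MHC class II genes lie far above the lines, endothelial and mural genes lie below them, and Csf3r and Fn1 lie near equality.

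The log2 ratio was larger than the range among the 3 floxed controls for 1095 of the 1165 genes past the size rule (94.0%), and for 2282 of the 6156 that did not pass. The median of this range over the genes considered was 0.44. Genes past the rule were chosen for an absolute log2 ratio of at least 1, so a high share among them was largely built in. Of the 637 higher genes, the EGFP-negative library lay above all 3 floxed controls in 616. Of the 528 lower genes, the EGFP-negative library lay below all 3 floxed controls in 286, within or above them in the rest, and the wild-type library lay above all 3 in 436. Over all 7321 genes the EGFP-negative library was above all 3 in 2697 and below all 3 in 2600, and the wild-type library was above all 3 in 2036. These positions compare levels across separately scaled tables, and for genes past the rule the choice by ratio itself favours them.

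Neutrophil markers were far above wild-type as a group. Of 20 listed, Ly6g was not analysed here, and 15 of the 16 that reached 20 CPM passed the size rule, all higher, where 8.7% of all genes considered were higher. The median log2 ratio was 4.57 over 19 members, and -1.08 for the EGFP-positive library over the same wild-type library, which both ratios share. Their summed level was 13036 CPM in the EGFP-negative library, 445 CPM in the EGFP-positive library and 902 CPM in the wild-type library, with 840 to 925 CPM in the floxed controls. Csf3r, the receptor for granulocyte colony-stimulating factor, is also expressed by microglia and held much of the wild-type sum. Without it, a choice made after the values were seen, the sums were 12622 CPM in the EGFP-negative library, 161 CPM in the EGFP-positive library and 440 CPM in the wild-type library, a fold of 28.7 over wild-type. In this sum the EGFP-negative library stood apart from the EGFP-positive, wild-type and floxed control libraries of day 6. In a bulk sample, more cells of a type and more RNA per cell cannot be told apart.

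S100a8 and S100a9 encode the paired subunits of calprotectin, the abundant cytosolic protein complex of neutrophils, and lie on chromosome 3 (S100a8 at 90668978 to 90670035, plus strand, and S100a9 at 90692632 to 90695721, minus strand, GRCm38). S100a8 had 3106 CPM in the EGFP-negative library, 35.2 CPM in the EGFP-positive library, 73.0 CPM in the wild-type library, and 70.7, 78.5 and 47.0 CPM in the floxed controls. Its fold over wild-type was 42.5 (40.5 to 44.7). S100a9 had 4937 CPM in the EGFP-negative library, 25.5 CPM in the EGFP-positive library and 136 CPM in the wild-type library, and 77.1, 100.5 and 100.4 CPM in the floxed controls. For both genes 1 library was high and the other 5 were low. Retnlg, a resistin-like protein of granulocytes, was among the 12 highest ratios, at 526 CPM in the EGFP-negative library, 0 counts in the EGFP-positive library and 3.89 CPM in the wild-type library (log2 ratio 6.75). Cxcr2, the chemokine receptor that guides neutrophils into tissue, had 90.3 CPM in the EGFP-negative library, 0.0773 CPM in the EGFP-positive library and 0.268 CPM in the wild-type library, a fold of 337 (154 to 919).

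Granule genes of neutrophils were higher wherever they reached 20 CPM. Among genes of secondary and tertiary granules, Ltf (lactoferrin) had 639 CPM in the EGFP-negative library and 47.9 CPM in wild-type, and Ngp (neutrophilic granule protein) had 1724 CPM in the EGFP-negative library and 115 CPM in wild-type. Lcn2 (neutrophil gelatinase-associated lipocalin) had 501 CPM in the EGFP-negative library and 41.4 CPM in wild-type, and Camp (cathelicidin) had 109 CPM in the EGFP-negative library and 8.49 CPM in wild-type. The collagenase gene Mmp8 had 368 CPM in the EGFP-negative library and 3.80 CPM in wild-type, and the gelatinase gene Mmp9 had 150 CPM in the EGFP-negative library and 2.55 CPM in wild-type. The log2 ratios of Camp, Lcn2, Ltf and Ngp were 3.54 to 3.90, while those of Mmp9 and Mmp8 were 5.41 and 6.27. Mpo, the myeloperoxidase of primary granules, had 40.3 CPM in the EGFP-negative library and 0 counts in wild-type, so no fold is given. Elane and Prtn3, serine proteases of the same granules that precursors transcribe, stayed under 20 CPM, at 18.3 and 8.34 CPM in the EGFP-negative library against 0.0894 and 0.536 CPM in wild-type. Il1r2, the decoy receptor for interleukin 1, had 171 CPM in the EGFP-negative library, 0 counts in the EGFP-positive library and 1.12 CPM in wild-type. The stefin genes Stfa2 and BC100530 were among the 12 highest ratios, at 86.0 and 87.2 CPM in the EGFP-negative library against 3 counts and 0 counts in wild-type, and reads of these near-identical copies may be split among them.

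The exceptions were members that microglia share or that were low. Csf3r had 414 CPM in the EGFP-negative library, 284 CPM in the EGFP-positive library and 462 CPM in the wild-type library (log2 ratio -0.16), and 468 to 575 CPM in the floxed controls. Mrgpra2b did not reach 20 CPM in either library.

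Monocyte markers were higher to a like extent. Of 19 listed, 18 were in the table and 16 passed the size rule, all higher, where 8.7% of all genes considered were higher. Their median log2 ratio was 5.08. The median log2 ratio of the same genes in the EGFP-positive library over the same wild-type library was 1.34. Without Fn1, which held most of the wild-type sum, the summed level was 5284 CPM in the EGFP-negative library, 931 CPM in the EGFP-positive library and 220 CPM in the wild-type library, with 195 to 255 CPM in the floxed controls. With Fn1 the sums were 6630 CPM in the EGFP-negative library, 1709 CPM in the EGFP-positive library and 1581 CPM in the wild-type library.

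Ccr2, the receptor that releases monocytes from bone marrow and draws them to inflamed tissue, had 698 CPM in the EGFP-negative library, 64.5 CPM in the EGFP-positive library and 14.2 CPM in the wild-type library, and 12.9, 27.1 and 25.1 CPM in the floxed controls. Its fold over wild-type was 49.3 (44.1 to 55.3). Ly6c2, which encodes the Ly6C antigen of classical monocytes, had 154 CPM in the EGFP-negative library, 10.4 CPM in the EGFP-positive library and 3.60 CPM in the wild-type library. Ly6c1, its near-identical neighbour expressed in endothelium and named after its values were seen, went the other way, with 29.9 CPM in the EGFP-negative library and 131 CPM in wild-type. Chil3, a chitinase-like secreted protein of monocytes and neutrophils, had 1751 CPM in the EGFP-negative library, 228 CPM in the EGFP-positive library and 39.7 CPM in the wild-type library. For Ccr2 and Chil3 the EGFP-positive library also lay above the wild-type library and the floxed controls, far below the EGFP-negative one.

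Plac8 and Vcan, the proteoglycan versican, were among the 12 highest ratios, at 6.62 and 6.38. They had 256 and 290 CPM in the EGFP-negative library, against 1.61 and 2.50 CPM in wild-type. Of the list members known from nonclassical monocytes, Treml4 had 24.6 CPM in the EGFP-negative library against 0.268 CPM in wild-type, while Ace (angiotensin-converting enzyme) did not pass, at 179 CPM in the EGFP-negative library against 102 CPM in wild-type. Spn (CD43) and Adgre4, which are no list members and were chosen after the values were seen, had 92.9 and 127 CPM in the EGFP-negative library against 2.37 and 0.983 CPM in wild-type. F13a1, the factor XIII A chain of monocytes and macrophages, was high in both reporter libraries, with 392 CPM in the EGFP-negative library, 416 CPM in the EGFP-positive library and 18.8 CPM in the wild-type library. The floxed controls had 43.5 to 65.4 CPM of F13a1. Fn1 (fibronectin) did not pass, with 1346 CPM in the EGFP-negative library against 1361 CPM in wild-type. Among other genes of the 12 highest ratios, Slfn4 and Clec4e, a receptor for mycobacterial glycolipids, had 305 and 168 CPM in the EGFP-negative library against 3.66 and 1.18 CPM in wild-type.

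**Figure D2:**
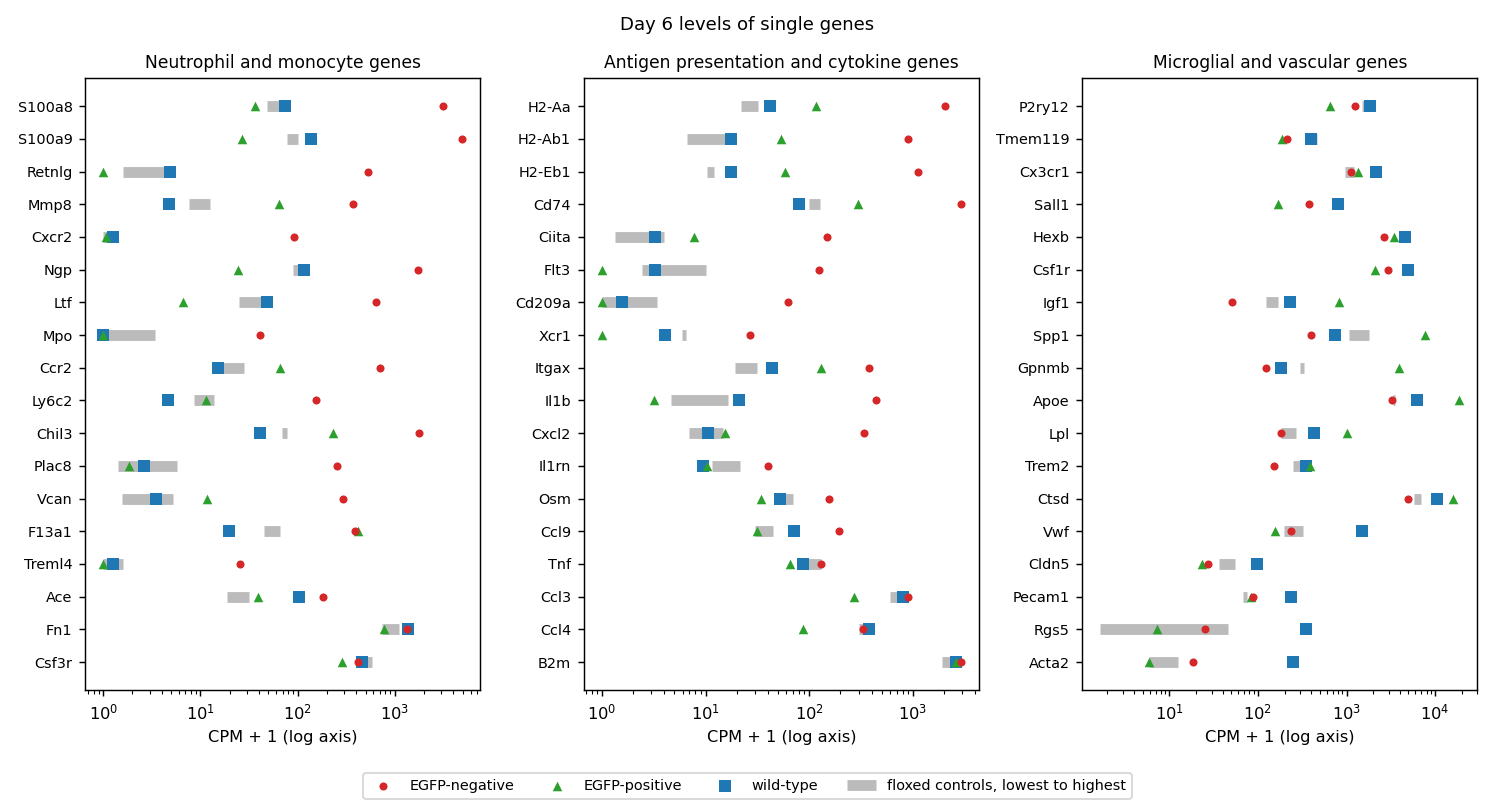
Levels of single genes on day 6 as CPM + 1 on log axes, with the EGFP-negative library as circles, the EGFP-positive library as triangles, the wild-type library as squares, and grey bars from the lowest to the highest of the 3 floxed controls. Most neutrophil, monocyte and class II genes are far right in the EGFP-negative library. Csf3r, Fn1 and Ace are not, and for F13a1 the EGFP-positive library lies slightly further right. Homeostatic microglial genes lie close together, and the wild-type square lies right of all others for Rgs5 and Acta2.

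The sorting antigens did not all match between both libraries. Ptprc, which encodes CD45, had 1637 CPM in the EGFP-negative library, 770 CPM in the EGFP-positive library and 550 CPM in the wild-type library, and 621 to 768 CPM in the floxed controls. Its fold over wild-type was 2.97 (2.91 to 3.04), past the size rule. Itgam, which encodes CD11b, had 1353 CPM in the EGFP-negative library, 926 CPM in the EGFP-positive library and 1432 CPM in the wild-type library, a log2 ratio of -0.08. Pecam1, which encodes CD31, had 87.1 CPM in the EGFP-negative library, 82.8 CPM in the EGFP-positive library and 232 CPM in the wild-type library, and 66.0 to 73.9 CPM in the floxed controls. The part of the gates in the differences of this comparison was not tested.

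Markers of other leukocytes were lower in level but mostly in the same direction. Of 15 dendritic cell markers, 8 reached 20 CPM and 7 passed the size rule, all higher, where 8.7% of all genes considered were higher. The median log2 ratio over 12 was 2.76. This median moved with the pseudocount, to 3.74 with 0.1 CPM and 1.64 with 5 CPM. Flt3, the cytokine receptor of dendritic cell precursors, had 124 CPM in the EGFP-negative library, 0 counts in the EGFP-positive library and 2.26 CPM in wild-type. Cd209a and Clec10a, lectins of monocyte-derived and conventional dendritic cells, had 61.0 and 58.2 CPM in the EGFP-negative library against 0.581 and 0.737 CPM in wild-type. Xcr1, a receptor of cross-presenting dendritic cells, had 25.8 CPM in the EGFP-negative library, 0 counts in the EGFP-positive library and 3.04 CPM in wild-type. Among 19 T and NK cell markers only Klrd1, which is also on the dendritic list, passed, at 31.6 CPM in the EGFP-negative library against 0.760 CPM in wild-type. The CD3 genes of the T cell receptor complex, Cd3e, Cd3d and Cd3g were at 0.745, 1.49 and 0.944 CPM in the EGFP-negative library and at 0 counts in wild-type. No platelet or red cell marker reached 20 CPM, and the B cell list had 1 member past the rule, Ebf1, which was lower.

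Most MHC class II presentation genes were higher in the EGFP-negative library. Of 15 class II presentation genes, 12 reached 20 CPM and 10 passed the size rule, all higher, where 8.7% of all genes considered were higher. The median log2 ratio was 1.70. Their sum was 10998 CPM in the EGFP-negative library, 4475 CPM in the EGFP-positive library and 3502 CPM in the wild-type library, with 3224 to 3680 CPM in the floxed controls. The peptide-displaying chains, Ciita and the invariant chain had the largest ratios of the list. H2-Aa, the class II alpha chain (chromosome 17, 34282744 to 34287823, minus strand, GRCm38), had 2029 CPM in the EGFP-negative library, 114 CPM in the EGFP-positive library and 40.5 CPM in the wild-type library, and 21.1, 22.8 and 31.2 CPM in the floxed controls. Its fold over wild-type was 50.2 (46.9 to 53.6). The beta chain genes H2-Ab1 and H2-Eb1 had 891 and 1114 CPM in the EGFP-negative library, 52.9 and 57.4 CPM in the EGFP-positive library, and 16.6 CPM each in the wild-type library. Reads of H2 genes can be split among related copies. Cd74, the invariant chain that guides class II molecules, had 2886 CPM in the EGFP-negative library, 296 CPM in the EGFP-positive library and 78.3 CPM in the wild-type library.

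Ciita, the coactivator that switches class II genes on, had 148 CPM in the EGFP-negative library, 6.68 CPM in the EGFP-positive library and 2.23 CPM in the wild-type library (log2 ratio 5.52). The peptide-exchange genes H2-DMa, H2-DMb1 and H2-DMb2 had log2 ratios of 1.33, 1.70 and 2.79. Ctss, the cathepsin that trims the invariant chain and that microglia express strongly, did not pass, at 3144 CPM in the EGFP-negative library against 2916 CPM in wild-type. The costimulatory gene Cd86 also did not pass, at 198 CPM in the EGFP-negative library against 206 CPM in wild-type. Class I presentation genes gave a contrast within the same libraries, with 0 of 14 past the rule and a median log2 ratio of 0.21, and B2m, the class I light chain, at 2899 CPM in the EGFP-negative library and 2592 CPM in wild-type (log2 ratio 0.16, below 0 with total-count scaling).

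Among 29 cytokine and chemokine genes, 16 reached 20 CPM and 5 of these passed the size rule, all higher, where 8.7% of all genes considered were higher. Il1b, the inflammatory interleukin 1 beta, had 438 CPM in the EGFP-negative library, 2.16 CPM in the EGFP-positive library and 20.1 CPM in the wild-type library, and 3.60, 15.5 and 8.92 CPM in the floxed controls. Cxcl2, a ligand of Cxcr2, had 335 CPM in the EGFP-negative library, 14.3 CPM in the EGFP-positive library and 9.61 CPM in the wild-type library. Il1rn, the interleukin 1 receptor antagonist, Osm (oncostatin M) and Ccl9 had log2 ratios of 2.08, 1.56 and 1.43. Tnf, Il1a, Ccl3 and Ccl4 did not pass, with 130, 115, 891 and 330 CPM in the EGFP-negative library against 86.9, 135, 793 and 375 CPM in wild-type. Of 30 interferon-stimulated genes, 28 reached 20 CPM and 10 passed the rule, all higher, with a median log2 ratio of 0.76. With total counts 5 of the 28 passed. Oas3 and Rsad2, both antiviral effectors, had 69.0 and 118 CPM in the EGFP-negative library against 7.57 and 33.4 CPM in wild-type.

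**Figure D3:**
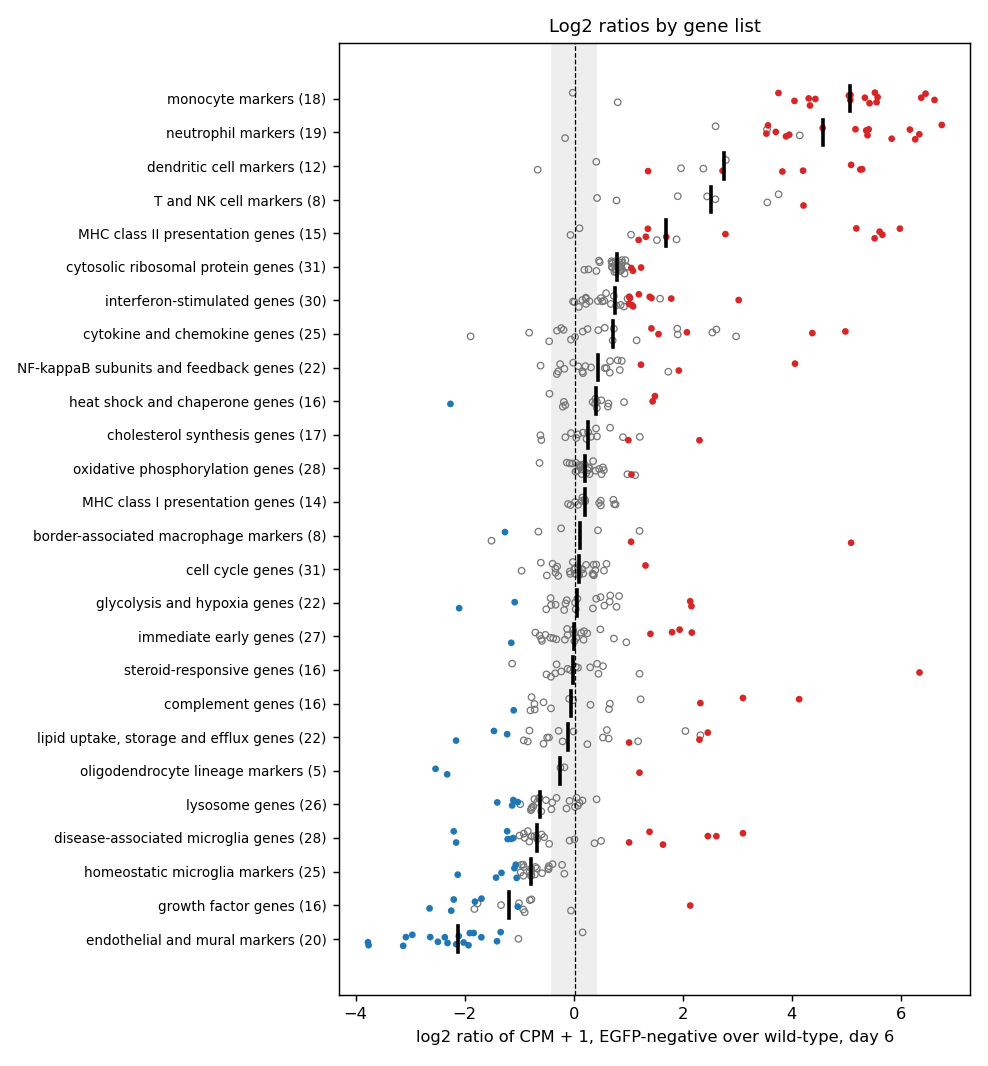
Each point is the log2 ratio of 1 list member that reached 5 CPM in either library, filled where it passed the size rule (red higher, blue lower); black bars are list medians, the number of members is in brackets, the dashed line is the median of all genes (0.03) and the grey band their quartiles. The monocyte and neutrophil medians of 5.08 and 4.57 are at the top and the endothelial and mural median of -2.13 at the bottom.

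Homeostatic microglia markers had high levels in both libraries, and their ratios lay to one side of 0. All 25 homeostatic microglia markers had a log2 ratio below 0, with a median of -0.78 and a range of -2.12 to -0.17. The size rule was passed by 6, all lower, where 7.21% of all genes considered were lower. The same 25 were below 0 under TMM, RLE, total-count and Rn45s-free scaling, while 48.1% to 62.5% of all 10999 genes were below 0 under these scalings. Their sum was 17720 CPM in the EGFP-negative library, 14572 CPM in the EGFP-positive library and 29155 CPM in the wild-type library, with 24993 to 26608 CPM in the floxed controls. P2ry12, the purinergic receptor of microglial processes, had 1233 CPM in the EGFP-negative library, 645 CPM in the EGFP-positive library and 1839 CPM in the wild-type library, and 1501 to 1796 CPM in the floxed controls. Tmem119, a microglial surface protein, had 210 CPM in the EGFP-negative library, 185 CPM in the EGFP-positive library and 398 CPM in the wild-type library. Cx3cr1, the fractalkine receptor, had 1115 CPM in the EGFP-negative library, 1338 CPM in the EGFP-positive library and 2164 CPM in the wild-type library, but 959 to 1208 CPM in the floxed controls, so the EGFP-negative library lay within the floxed range and the wild-type library above it. P2ry12 did not pass the size rule under any of these scalings. Tmem119 and Cx3cr1 did not pass under TMM. Their log2 ratios were -1.13 and -1.16 with total counts and -1.08 and -1.11 without Rn45s, past the rule in both. Cx3cr1 also passed under RLE, at -1.03. Of the 25 markers, 12 passed with total counts, 11 without Rn45s and 8 under RLE, all lower.

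Among the 6 that passed, Sall1, the transcription factor of microglial identity, had 379 CPM in the EGFP-negative library against 791 CPM in wild-type, and Mertk, a receptor for apoptotic cells, had 325 CPM in the EGFP-negative library against 671 CPM in wild-type. Fcrls, an Fc receptor-like protein of microglia, had 498 CPM in the EGFP-negative library, 981 CPM in the EGFP-positive library and 1248 CPM in the wild-type library, but 198 to 333 CPM in the floxed controls, so for this gene too the wild-type library was the one farther from the controls.

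Disease-associated microglia genes split. Of 28, the size rule was passed upwards by 6 and downwards by 6 (5 and 11 with total counts). Of all genes considered, 8.7% were higher and 7.21% lower. The median log2 ratio of the 28 was -0.67, against a median of 1.03 in the EGFP-positive library over the same wild-type library. The higher members were Itgax (CD11c), Lgals3, Cd36, Ccl6, Lilrb4a and Msr1, genes that monocytes, macrophages or dendritic cells also use. Itgax had 378 CPM in the EGFP-negative library, 128 CPM in the EGFP-positive library and 43.0 CPM in the wild-type library. Cd36, a scavenger receptor for lipids, had 77.6 CPM in the EGFP-negative library, 326 CPM in the EGFP-positive library and 13.3 CPM in the wild-type library. The lower members were Igf1, which the sort chose, Ch25h, Lpl, Trem2, Timp2 and Ctsd. Trem2, the lipid-sensing receptor, had 150 CPM in the EGFP-negative library and 348 CPM in wild-type, and Lpl, lipoprotein lipase, had 182 CPM in the EGFP-negative library and 426 CPM in wild-type. The EGFP-negative library lay below all 3 floxed controls for these 6 and the wild-type library above all 3.

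Spp1, Gpnmb and Apoe, known from lipid-laden phagocytes, were below wild-type and did not pass the size rule under TMM. With total counts the log2 ratios of Spp1 and Apoe were -1.10 and -1.12, past the rule, and that of Gpnmb was -0.74. Without Rn45s those of Spp1 and Apoe were -1.05 and -1.07, also past the rule, and that of Gpnmb was -0.69. Spp1 (osteopontin) had 400 CPM in the EGFP-negative library, 7628 CPM in the EGFP-positive library and 745 CPM in the wild-type library, and 1067, 1789 and 1470 CPM in the floxed controls. Gpnmb, a lysosomal glycoprotein, had 123 CPM in the EGFP-negative library, 3913 CPM in the EGFP-positive library and 179 CPM in the wild-type library, and 294 to 329 CPM in the floxed controls. Apoe, the main lipid carrier of the brain, had 3281 CPM in the EGFP-negative library, 18823 CPM in the EGFP-positive library and 6183 CPM in the wild-type library, and 3307 to 3565 CPM in the floxed controls. For Spp1 and Gpnmb the EGFP-negative library was the lowest of the 6. For Apoe it was next to the floxed controls. Among 28 lysosome genes, 26 reached 20 CPM and 4 passed the rule (Ctsd, Grn, Glb1 and Naglu), all lower, where 7.21% of all genes considered were lower, and the median log2 ratio was -0.61. Ctsd, a lysosomal protease on both lists, had 4902 CPM in the EGFP-negative library, 16008 CPM in the EGFP-positive library and 10547 CPM in the wild-type library.

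Endothelial and mural markers had the lowest median of the lists with at least 5 members, and here the wild-type library was the one that stood apart. Of 20 markers, 18 passed the size rule, all lower, where 7.21% of all genes considered were lower. The median log2 ratio was -2.13, and 16 of the 18 ratios were larger than the range among the floxed controls, a share that the size rule favours. Their sum was 775 CPM in the EGFP-negative library, 624 CPM in the EGFP-positive library and 4076 CPM in the wild-type library, while the floxed controls had 775 to 1057 CPM. The wild-type library lay above all 3 floxed controls for all of the 18, and the EGFP-negative library below all 3 for 8, within them for 5 and above them for 5. Vwf, the von Willebrand factor of endothelium, had 238 CPM in the EGFP-negative library and 1475 CPM in wild-type. Rgs5, a pericyte gene, had 24.4 CPM in the EGFP-negative library, 6.18 CPM in the EGFP-positive library and 345 CPM in the wild-type library, and 0.670, 3.28 and 44.9 CPM in the floxed controls. The smooth muscle genes Acta2 and Myh11 had 17.6 and 21.8 CPM in the EGFP-negative library against 250 and 433 CPM in wild-type.

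Vessel genes were also frequent among the 12 lowest ratios. These were Tpm2, Ltbp4, Myh11, Aoc3, Vtn, Gucy1b3, Cd5l, Bgn, Tnfrsf19, Eln, Pcp4l1 and Rgs5, with log2 ratios of -4.29 to -3.77, of which Tpm2, Myh11, Eln, Bgn, Aoc3 and Rgs5 are known from contractile or matrix-forming vessel cells. The choroid plexus genes Ttr and Enpp2, chosen after their values were seen, had 36.0 and 32.5 CPM in the EGFP-negative library against 262 and 232 CPM in wild-type, and 1.42 to 7.17 CPM in the floxed controls. Cd5l, a protein of tissue macrophages, differed from the vessel genes in that the EGFP-positive library was high too, with 2.09 CPM in the EGFP-negative library, 87.9 CPM in the EGFP-positive library and 47.2 CPM in the wild-type library, and 3.07 to 5.18 CPM in the floxed controls. Of 21 growth factor genes, 10 reached 20 CPM. By the size rule 6 of these were lower and 1 was higher, against 7.21% and 8.7% of all genes considered. Beside Igf1 the lower ones were Igfbp7, Igfbp4, Fgf1, Gas6 and Grn, and for all 6 the wild-type library lay above the 3 floxed controls. Vegfa was the higher one, at 20.9 CPM in the EGFP-negative library against 3.98 CPM in wild-type, just above the level minimum. Under RLE and total-count scaling 0 growth factor genes were higher by the rule, with Vegfa log2 ratios of 2.07 and 1.96. The part of vessel RNA in these values was not tested.

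**Figure D4:**
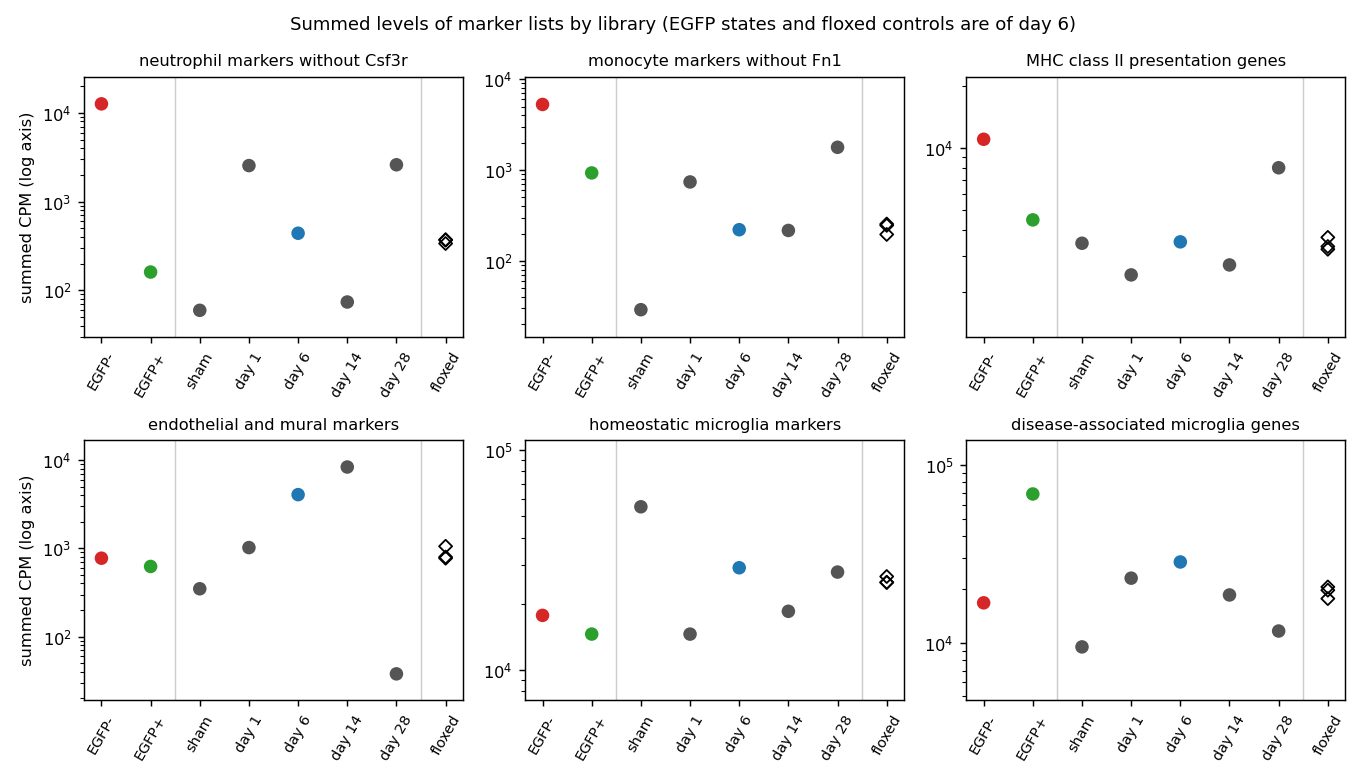
Summed CPM of 6 marker lists on log axes in the EGFP-negative and EGFP-positive libraries of day 6, in the wild-type libraries from sham to day 28, and in the 3 day 6 floxed controls (diamonds, scaled separately). Neutrophil and monocyte sums are highest in the EGFP-negative library, at 12622 and 5284 CPM, and the endothelial and mural sum of the day 6 wild-type library, 4076 CPM, lies above the floxed controls.

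Immediate early, cell cycle and glycolysis genes had medians near 0. Among 28 immediate early genes, of which 24 reached 20 CPM, 4 were higher (Dusp2, Nr4a3, Nr4a1 and Fosl2) and 1 lower (Fosb), with a median log2 ratio of 0.01. Fos and Jun, the AP-1 subunits that cell isolation can induce, had 1754 and 3097 CPM in the EGFP-negative library against 1762 and 3460 CPM in wild-type. Nr4a1, an orphan nuclear receptor, had 237 CPM in the EGFP-negative library, 37.1 CPM in the EGFP-positive library and 67.0 CPM in the wild-type library. Of 33 cell cycle genes, 19 reached 20 CPM and 1 was past the rule, Hmgb2, with a median of 0.09. Of 24 glycolysis and hypoxia genes, 21 reached 20 CPM, with 2 higher and 2 lower and a median of 0.05. The shares past the rule in the last 2 lists were near those of all genes considered, 8.7% higher and 7.21% lower. NF-kappaB subunits and feedback genes had 3 higher of 19 that reached 20 CPM, with a median of 0.45. Complement genes divided, with the tissue macrophage gene C1qc at 750 CPM in the EGFP-negative library against 1607 CPM in wild-type, and C3 and properdin (Cfp) at 244 and 66.1 CPM in the EGFP-negative library against 47.8 and 2.81 CPM in wild-type.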

How the data were processed

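RNA was sequenced from sorted forebrain microglia. The submitters' processing notes name STAR, featureCounts, edgeR and the builds mm10 and GRCm38, without versions or roles. Day 6 reporter and wild-type libraries share a table, which like that of the day 14 reporter libraries holds whole read counts per gene as deposited by the authors. The table with the floxed controls holds fractional expected counts as deposited, rounded here to whole numbers. The strand setting of the counting is not given in the sources used here, so a gene and its antisense partner cannot be parted.

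CPM were scaled by TMM within each table (edgeR 4.0.16, R 4.3.3). A pseudocount of 1 CPM was added before taking log2 ratios, so folds of low genes are understated on that scale. Medians of lists cover members that reached 5 CPM in either library. Intervals are conditional binomial (scipy 1.17.1), on halved counts. PCR reads are not independent molecules. The ratios, the size rule and the intervals were tried on simulated counts scaled by their totals. That trial did not cover the TMM scaling or the halving of counts. The floxed controls held 11035278 to 13936045 counts. Gene positions are from GENCODE on GRCm38. There were 27 date-like gene names, which are not reported.

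Members and lists were chosen with earlier results of these data known. Named genes were a fixed set with all neutrophil and monocyte markers, the 12 highest and 12 lowest ratios, and up to 4 members of each list past the size rule (where none passed, the 2 with the highest level). Other members given are examples from the lists, or were picked with their values in view, which is said beside them. Alternatives were other scalings, pseudocounts, level minimums and size thresholds, and Rn45s left out of totals. The results of 2 genes picked by this rule are not reported here.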

Additional observations from a re-analysis of the deposited data

How the results depend on the processing

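The counts of 637 higher and 528 lower genes stayed within 1.5 times under RLE, total-count, day 6-only and Rn45s-free scaling and pseudocounts of 0.1 and 5. They were 1219 higher and 1767 lower with no minimum level, 1121 lower at 5 CPM, 413 higher and 253 lower at 50 CPM, and 286 higher and 196 lower at an absolute log2 ratio of 2. The neutrophil median was 5.41 with a pseudocount of 0.1, 3.61 with 5 and 5.17 at a minimum of 50 CPM, and the monocyte median 4.14 with a pseudocount of 5. The dendritic median was 3.74 with a pseudocount of 0.1, 1.64 with 5 and 4.46 at a minimum of 50 CPM, and the T and NK cell median 4.76 with a pseudocount of 0.1, 1.06 with 5 and 0.93 with no minimum. A larger pseudocount shrinks ratios of low genes by construction, and the cause of the other changes was not tested. Among 137 named genes only B2m and Canx changed sign, B2m to -0.044 and Canx to -0.0554 with total counts, and Canx to -0.0046 without Rn45s. With each floxed control left out in turn, 1125 to 1146 genes past the rule exceeded the range of the remaining pair, against 1095 with all 3. Leaving out a library cannot widen the range, so this count could only stay or rise. The fold of the summed monocyte markers was 4.19 with Fn1 and 24.0 without, and that of the neutrophil markers 14.5 with Csf3r and 28.7 without, both chosen after seeing the data. No paired analysis was possible because each group compared has 1 library. Depth limits genes such as Stfa2, which had 3 counts in wild-type.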

Other observations

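Cytosolic ribosomal protein genes had ratios above 0, which the comparison above does not describe. Of 31 with at least 5 CPM, all had a log2 ratio above 0, with a median of 0.79, and 3 passed the size rule (Rps9, Rps24 and Rps4x), a share near the 8.7% of all genes considered. Of all 10999 genes, 51.9% were above 0. With total-count scaling 30 of 31 were above 0, with a median of 0.58, where 37.5% of all genes were, and only Rps9 passed (log2 ratio 1.03, against 0.88 for Rps24 and 0.85 for Rps4x). Their sum was 10283 CPM in the EGFP-negative library, 7120 CPM in the EGFP-positive library and 5929 CPM in the wild-type library, and 4823 to 5445 CPM in the floxed controls. The heat shock genes Hspa1a and Hspa1b, near-identical copies, had 450 and 374 CPM in the EGFP-negative library against 164 and 132 CPM in wild-type, while the small heat shock gene Hspb1 had 6.83 against 36.5 CPM. Hdc, the enzyme that makes histamine, had 70.4 CPM in the EGFP-negative library, 0 counts in the EGFP-positive library and 1.99 CPM in wild-type. It is 1 of 14 listed mast cell, basophil and eosinophil markers, of which 3 reached 20 CPM. The other 2 did not go with it, as Gata2 was lower by the size rule (log2 ratio -1.67) and Siglecf did not pass.

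The neutrophil sum without Csf3r also varied among other libraries of the series, with 59.6 CPM in sham, 2544 CPM on day 1, 440 CPM on day 6, 73.9 CPM on day 14 and 2599 CPM on day 28 of the wild-type time course, 1 library each. On day 14 the reporter libraries, counted and scaled in their own table and sequenced on another instrument, had 5.97 CPM in the EGFP-negative library and 1250 CPM in the EGFP-positive library. On day 6 the EGFP-negative library had 12622 CPM and the EGFP-positive library 161 CPM. The class II sum was 11179 CPM in the EGFP-negative and 13570 CPM in the EGFP-positive library of day 14. Each value is from 1 library, and the difference between days was not tested.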
